A study of Rattus norvegicus with 8 samples.

Results

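The genes described here encode the presynaptic vesicle and its release machinery: the vesicle membrane proteins, the synapsins, the synaptotagmins, the SNARE proteins with their cofactors, the Rab3 and active zone proteins, and proteins that retrieve vesicles. They were chosen by name, as 38 genes, from the 14217 genes that the platform annotation names with a single symbol. A probe set, the group of short probes that reads one transcript on the array, was taken for a gene only where the annotation gave that single symbol, which yielded 60 probe sets. Of these, 46 probe sets of 32 genes lay above a low-intensity limit and were tested. The other 14 probe sets lay below it, and for 6 genes (Sv2c, Syn3, Syt2, Syt7, Rph3a and Unc13a) every probe set did.

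The study used adult male Wistar rats of 250 to 300 g, whose age the labels do not give. Baculovirus, an insect virus used as a gene transfer vector, had been inactivated by ultraviolet light at 254 nm for 1 hour, and 50000000 viral particles in 5 µl went into the striatum at 2 sites. The control striatum on the opposite side received 5 µl of phosphate-buffered saline (PBS). Tissue was taken 48 hours later, and 4 arrays of each group are compared here, so all 8 arrays come from needle-injected brain and there is no uninjected group.

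The labels do not tie the 8 arrays to the 7 rats of the study. With fewer rats than arrays, some arrays must share an animal, and the labels do not say which. The fit treats the arrays as independent, and the p-values measure only the spread between these arrays. The labelled tissue is brain. Markers of striatal projection neurons were well measured, with mean intensities on the PBS arrays from 143 (Gpr6) to 1152 (Ppp1r1b) and 1615 (Penk). Genes of cortical neurons ranged from dim to bright, from Rorb (43.1) and Fezf2 (53.3) to Slc17a7 (915) and Nrgn (1824). In such bulk tissue, fewer cells of a type and less RNA per cell cannot be told apart. Every array had been scaled to nearly one mean, the array medians spanned 0.111 on the log2 scale, and the correlations between arrays over all tested probe sets lay between 0.97 and 0.986. PBS replicate 3 had the lowest correlations with the other arrays, 0.97 to 0.976, although baculovirus replicate 4 shared the lower bound. Because many presynaptic probe sets were low on PBS replicate 3, changes and counts are also given without that array. A change below is a log2 fold change, and a gene is called higher or lower by its mean log2 level.

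At a chemical synapse, transmitter is stored in vesicles that carry membrane proteins such as synaptophysin and the synaptic vesicle glycoproteins, and synapsins tether a reserve of them to the cytoskeleton. Rab3 proteins and the active zone scaffolds Rim, Bassoon and Piccolo bring vesicles to the release site, where the SNARE proteins synaptobrevin, syntaxin and SNAP-25 join the vesicle to the plasma membrane. Synaptotagmins sense calcium and trigger fusion, complexins clamp and assist it, NSF takes the spent SNARE complexes apart, and dynamin, amphiphysin and the clathrin adaptor AP180 recover the membrane. Many of these transcripts are made in nearly all neurons, so that in striatal tissue both projection neurons and interneurons can contribute. Which cells they came from here was not tested.

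No presynaptic probe set passed the test between inactivated baculovirus and PBS. With limma and Benjamini-Hochberg adjustment at 0.05, 0 of 46 probe sets were called, against 0% of the 18625 probe sets tested, and the lowest adjusted p among the members was 0.686. At an unadjusted p under 0.05, 3 member probe sets were higher after baculovirus, where the background was 2.51%, and 2 were lower, where it was 4.22%. The 3 were those of Syngr1 and both of Stx1a, and the 2 were Snap91 and one of Syt4. The baculovirus arrays lay wholly above the PBS arrays for the same 3 probe sets (background 1.55%) and wholly below for 1, of Syt4 (background 2.31%). Without PBS replicate 3, 0 of 46 were again called (lowest adjusted p 0.976 by limma, background 0%). At an unadjusted p under 0.05 there were then 3 higher (background 1.73%), the same probe sets as before, and 3 lower (background 2.84%), one of Nsf joining Snap91 and Syt4. The design could leave moderate differences uncalled. With simulated data of these arrays' means and fitted spread over 18625 probe sets, the fit found 0% of 200 probe sets changed by 1.25-fold. It found 61.5% of those changed by 1.5-fold and 99% of those changed by 2-fold. The simulated noise was independent for every probe set, so it held no shift shared by many probe sets of 1 array. Across the tested probe sets, the median 95% interval ran 0.231 to either side of the log2 estimate.

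Means were higher after baculovirus for most of the genes, and this count rested on 1 array. Taking for each gene its brightest probe set, 22 of 32 were higher and 10 lower, with a median log2 fold change of 0.05, where 55.7% of all 10539 genes tested were higher and their median was 0.02. Without PBS replicate 3, 10 were higher and 22 lower, with a median of -0.02, beside 54.8% higher and a median of 0.01 over all genes. Centring each array on its median left 18 of 32 higher with all arrays in. Such centring shifts every gene alike, and the share of all genes higher under it was not computed. The 18 therefore cannot be set against 55.7%. Over the probe sets, 33 of 46 had a higher mean with all arrays (background 53.7%) and 19 of 46 without PBS replicate 3 (background not computed).

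**Figure D1:**
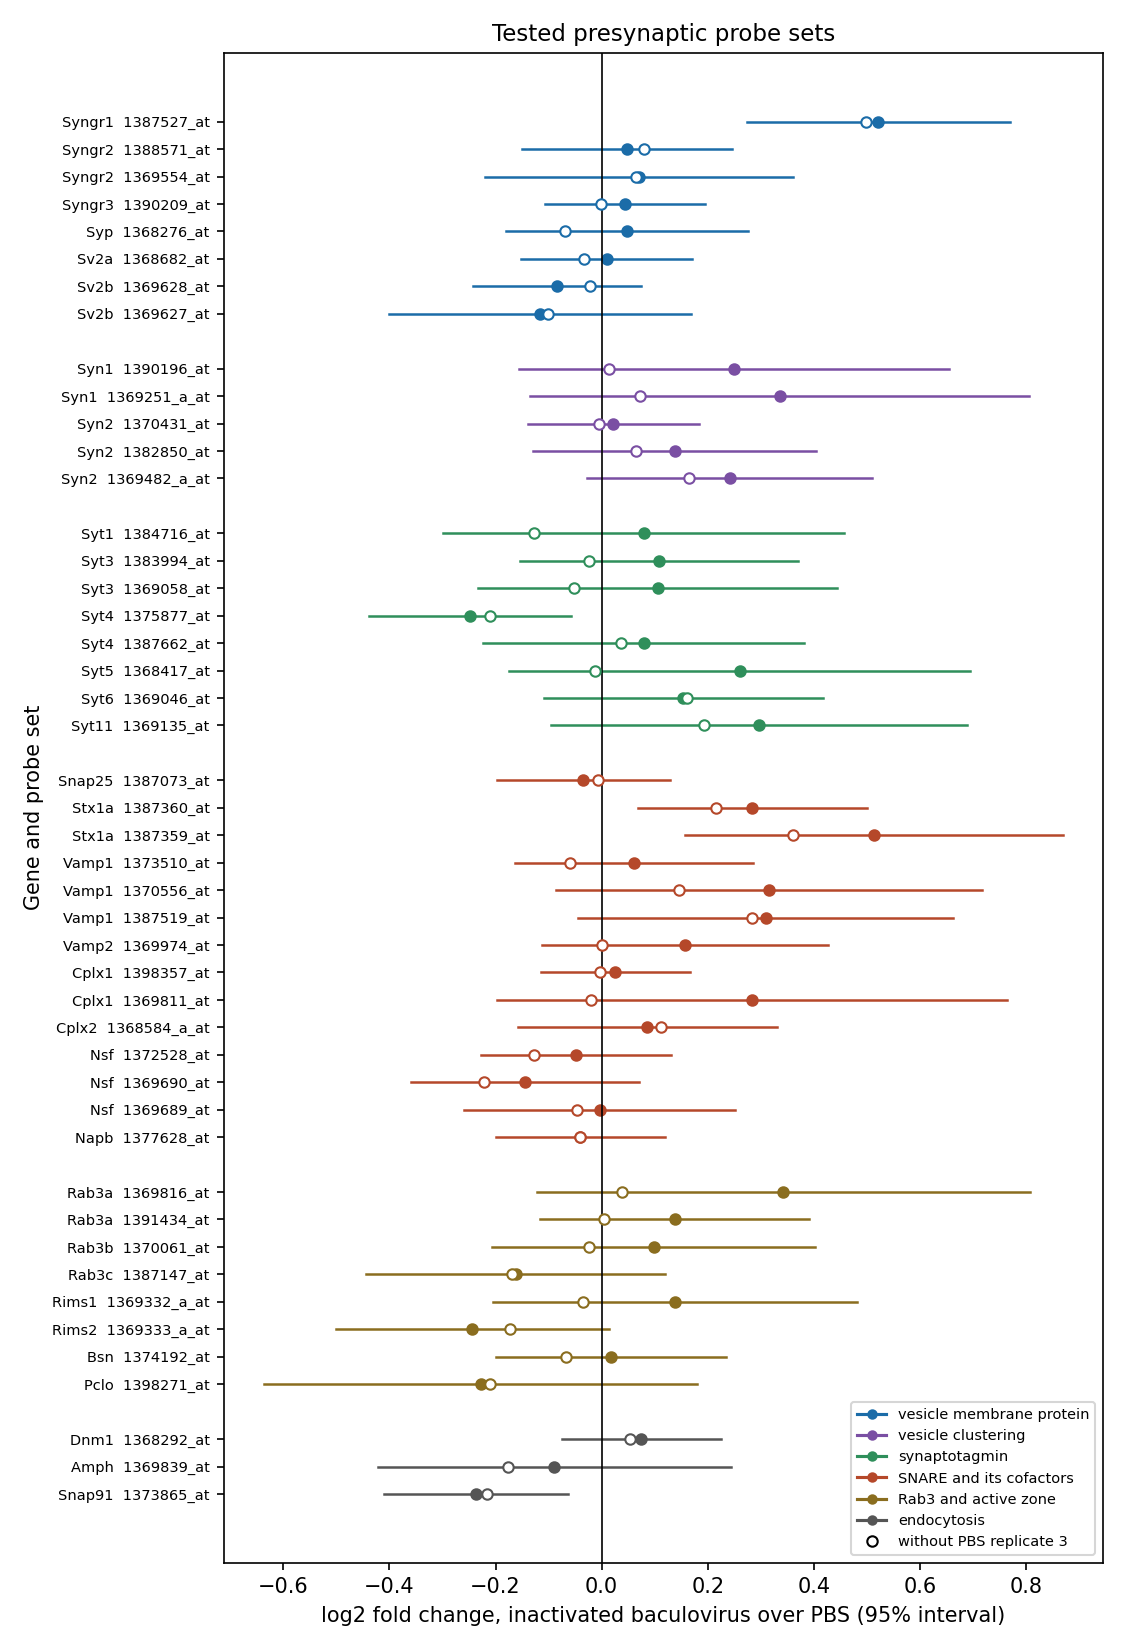
Log2 fold change of inactivated baculovirus over PBS (x axis) for the 46 tested presynaptic probe sets (y axis), coloured by role. Filled points and bars are the limma estimate and its 95% interval over 4 against 4 arrays, and open points the estimate without PBS replicate 3. Many filled points above 0 have an open point at or below 0, and the intervals of Syngr1, both Stx1a probe sets, 1 of Syt4 and Snap91 do not reach 0 although none passed adjustment.

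PBS replicate 3 was the lowest of the 8 arrays for 25 of 46 member probe sets, where it was the lowest for 17.8% of all probe sets tested. Measured as the log2 level on that array minus the median of the other 7, the median member stood at -0.244, and the median over all probe sets at 0.005. A limit of 0.5 below, set after the values were seen, was passed by 13 of 46 members, or 28.3%, against 3.48% of all probe sets. On the other 7 arrays, between 0 and 2 members passed that limit, as did 0.387% to 2.42% of all probe sets. The 13 were both probe sets of Syn1 and of Rab3a, and 1 each of Syt1, Syt3, Syt5, Syt11, Stx1a, Vamp1, Vamp2, Cplx1 and Rims1. The nearest inside the limit was the second Rab3a probe set at -0.54, and the nearest outside was the brighter Syt3 probe set at -0.48.

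Rab3a and Syn1 were low there at both of their probe sets. Rab3a, the vesicle-bound GTPase that recruits Rim, had intensities of 1233, 1223, 529 and 1302 on the PBS arrays and 1179, 1256, 1315 and 1404 on the baculovirus arrays at one probe set. Its second probe set read 1189, 1079.5, 813 and 1282 on PBS and 1077, 1134, 1233 and 1309 on baculovirus. PBS replicate 3 was the lowest array for both, and the other 7 arrays of the groups overlapped. The log2 fold changes of 0.34 and 0.14 were 0.04 and 0.01 without it.

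Syn1, which encodes synapsin I and tethers vesicles to actin, read 535, 725, 325 and 674 on PBS and 602, 599, 762 and 631 on baculovirus at its brighter probe set. The dimmer one read 134, 186, 73.6 and 196 on PBS and 179, 161, 226 and 160.3 on baculovirus. The changes of 0.25 and 0.34 became 0.01 and 0.07 without PBS replicate 3. Both probe sets therefore placed the same array lowest and baculovirus replicate 3 highest.

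Other members stayed level or were high on the same array, so the array was not low for the whole group. Snap25, a plasma membrane SNARE, read 1578, 1764, 1899 and 1944 on PBS and 1593, 1785, 1755 and 1869 on baculovirus. Sv2b, a vesicle glycoprotein, was highest there at its brighter probe set, at 1504 against 1160.3 to 1328 on the other 7 arrays. Its dimmer one read 66.6 there, below 71.9 on PBS replicate 1 and 80.0 on baculovirus replicate 3. Rims2, an active zone scaffold, also had its highest value there, 63.2 against 37.6 to 55.0 elsewhere. Deviations for all members on PBS replicate 3 ran from -1.22 (Rab3a) to 0.42 (Rims2).

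Baculovirus replicate 3 had the reverse standing. It was the highest array for 17 of 46 member probe sets, against 10.5% of all probe sets tested. The median member stood 0.111 above the other arrays there, and the median over all probe sets stood at -0.009. Leaving out that array, 18 of 32 genes were higher after baculovirus, and all 18 were among the 22 that were higher with all arrays. The share of all genes higher without baculovirus replicate 3 was not computed.

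**Figure D2:**
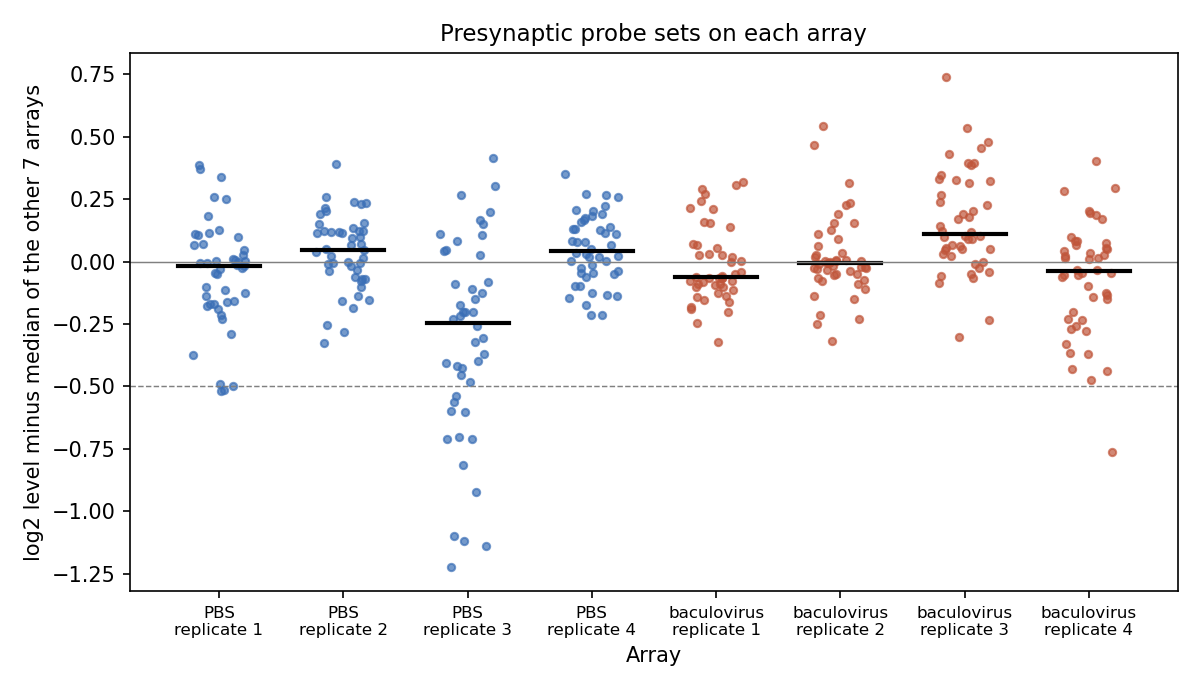
Deviation of each of the 46 tested presynaptic probe sets (points) on each of the 8 arrays (x axis), as the log2 level minus the median of the other 7 arrays (y axis). Black bars are medians and the dashed line marks 0.5 below. PBS replicate 3 has a median of -0.244 and 13 points below the line, and baculovirus replicate 3 has the highest median, 0.111.

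The promoters of some of the genes named above are printed, with sequence elements found in them marked. RefSeq promoters of the GRCr8 build, taken as the 250 bases before the start site, matched 30 of the 38 genes. Those of Rab3a, Cplx1 and Syn1 belong to the genes lowest on PBS replicate 3, that of Stx1a to the gene with higher values at both probe sets, and that of Sv2b to a gene highest on PBS replicate 3 at the brighter of its 2 tested probe sets. The genes were picked after their values were seen. Capitals mark GGGCGG, the GC box, and TGACGTCA, the cyclic AMP response element, each searched on both strands, so a GC box on the opposite strand reads CCGCCC.
Rab3a, chr16:18722274-18722523, minus strand: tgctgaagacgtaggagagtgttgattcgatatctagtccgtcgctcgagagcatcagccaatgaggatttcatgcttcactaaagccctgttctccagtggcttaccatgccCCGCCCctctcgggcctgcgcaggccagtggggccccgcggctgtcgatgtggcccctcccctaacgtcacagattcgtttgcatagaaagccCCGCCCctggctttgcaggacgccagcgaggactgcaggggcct
Cplx1, chr14:1328823-1329072, plus strand: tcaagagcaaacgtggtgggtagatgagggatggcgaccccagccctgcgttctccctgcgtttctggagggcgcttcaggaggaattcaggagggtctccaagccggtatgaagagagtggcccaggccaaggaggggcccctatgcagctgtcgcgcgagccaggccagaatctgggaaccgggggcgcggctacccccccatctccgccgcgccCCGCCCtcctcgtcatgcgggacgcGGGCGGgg
Syn1, chrX:3725495-3725744, plus strand: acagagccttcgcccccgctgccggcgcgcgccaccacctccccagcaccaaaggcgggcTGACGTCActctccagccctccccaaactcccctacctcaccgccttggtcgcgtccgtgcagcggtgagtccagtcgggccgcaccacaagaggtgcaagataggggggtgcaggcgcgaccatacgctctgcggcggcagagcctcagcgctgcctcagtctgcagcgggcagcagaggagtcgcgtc
Stx1a, chr12:27306472-27306721, minus strand: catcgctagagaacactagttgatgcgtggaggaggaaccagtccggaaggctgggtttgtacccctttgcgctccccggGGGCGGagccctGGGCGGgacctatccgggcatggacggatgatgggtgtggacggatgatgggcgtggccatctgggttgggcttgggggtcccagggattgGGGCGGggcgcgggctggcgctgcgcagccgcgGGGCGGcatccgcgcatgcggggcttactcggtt
Sv2b, chr1:138562259-138562508, minus strand: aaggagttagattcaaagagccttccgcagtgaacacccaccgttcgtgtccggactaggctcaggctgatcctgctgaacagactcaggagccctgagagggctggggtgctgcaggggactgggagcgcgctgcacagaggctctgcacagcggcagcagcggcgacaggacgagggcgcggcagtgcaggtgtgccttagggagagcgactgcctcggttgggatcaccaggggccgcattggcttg

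The GC box was present in 21 of 30 member promoters, or 70%, against 60% of the 8798 promoters of tested genes and 32.4% of all 27457 promoters. Rab3a and Cplx1 each hold it in the window, Stx1a holds several copies, and no copy was found in the windows of Syn1 and Sv2b. The cyclic AMP response element was found in 2 of 30, those of Syn1 and Vamp1, against 3% of tested genes' promoters and 1.7% of all promoters. The left part of the RE1 element, TTCAGCACC, which the neuronal repressor REST binds, was in 0 of 30 and in 0.398% of tested genes' promoters. The median GC content was 63.8% for the members with a promoter and 60.4% for all genes tested. It was 67.0% for the 10 members with a probe set low on PBS replicate 3 and 62.4% for the 16 other tested members. Over all genes tested, at their brightest probe set, it was 62.8% for the 279 more than 0.5 below on that array. For the 69 more than 0.5 above it was 56.8%. These are descriptions with no test.

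Among the vesicle membrane proteins, Syngr1, which encodes synaptogyrin 1, had the lowest p of all members. It read 22.8, 28.8, 24.6 and 30.9 on the PBS arrays and 38.5, 52.5, 49.4 and 41.6 on the baculovirus arrays. Every baculovirus value lay above every PBS value, and all were close to the low-intensity limit. The means were 45.5 ± 6.53 and 26.8 ± 3.76 (SD, n = 4), a log2 fold change of 0.52 with an interval of 0.27 to 0.77, unadjusted p 0.000544 and adjusted p 0.686 by limma. The change was 0.50 without PBS replicate 3. Its other probe set lay below the low-intensity limit, at 19.1 ± 8.18 after baculovirus and 19.6 ± 5.38 after PBS (SD, n = 4), so the second reading did not show the difference.

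The other vesicle membrane proteins moved little. Syngr2 had changes of 0.05 and 0.07 at its 2 probe sets, which were 0.08 and 0.06 without PBS replicate 3. Syngr3 had a change of 0.04, and of -0.00053 without that array. Syp, synaptophysin and the classical vesicle marker, read 783 ± 66.0 after baculovirus and 762 ± 119 after PBS (SD, n = 4), and its change of 0.05 was -0.07 without PBS replicate 3. Sv2a read 383 ± 17.9 and 381 ± 27.4 (SD, n = 4), and its change of 0.01 was -0.03 without it. Sv2b was lower at both tested probe sets, with changes of -0.08 and -0.12 over all arrays and -0.02 and -0.10 without PBS replicate 3. In all, 5 of the 6 tested genes of this role were higher, and 2 of 6 (Syngr1 and Syngr2) without that array.

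Syn2, the second synapsin, was read by 3 probe sets that differed in size of change. The brightest read 359, 389.9, 338 and 347 on PBS and 339, 356, 383 and 377 on baculovirus, a change of 0.02 (-0.0048 without PBS replicate 3). The next read 131, 154, 120 and 168 on PBS and 178, 152, 181 and 126 on baculovirus, a change of 0.14 (0.07 without it). The dimmest read 61.1, 78.5, 51.2 and 62.9 on PBS and 70.8, 75.8, 95.5 and 68.9 on baculovirus, a change of 0.24 with an interval of -0.03 to 0.51 (0.16 without it). All 3 overlapped between the groups, and the differences among them did not pass the test of a difference described below for all pairs.

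The synaptotagmins, the calcium sensors, included 5 genes whose means were higher and 1, Syt4, whose mean was lower, and 3 of the 6 were low on PBS replicate 3 at their brightest probe set. Leaving out that array, 2 of 6 were higher, Syt6 and Syt11. Syt1, the main sensor of fast release, read 71.1, 77.8, 37.5 and 88.5 on PBS and 65.6, 85.4, 70.6 and 63.5 on baculovirus. Its change of 0.08 was -0.13 without PBS replicate 3. Syt5 read 285, 271, 125 and 298 on PBS and 269, 255, 314 and 291 on baculovirus, with changes of 0.26 and -0.01 with and without that array. Neither gene separated the groups on the other 7 arrays.

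Syt3 had changes of 0.11 at both probe sets, which were -0.02 and -0.05 without PBS replicate 3. Syt11, an atypical isoform, read 54.0, 82.5, 51.1 and 88.1 on PBS and 106, 83.0, 108 and 57.5 on baculovirus, with changes of 0.30 and 0.19. Syt6 had a change of 0.15 that was 0.16 without PBS replicate 3.

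Syt4, an activity-induced isoform, was the exception among the genes with several probe sets. Its brighter probe set read 589, 468, 555 and 448 on PBS and 428, 447, 430.4 and 409 on baculovirus, and no baculovirus value reached the lowest PBS value. The change was -0.25 with an interval of -0.44 to -0.06, unadjusted p 0.0148 and adjusted p 0.688 by limma, and -0.21 without PBS replicate 3. The dimmer probe set read 48.8, 53.8, 46.2 and 59.7 on PBS and 61.6, 56.9, 71.2 and 37.8 on baculovirus, a change of 0.08 with overlapping groups, and of 0.04 without PBS replicate 3. The difference between the 2 probe sets, 0.33 with an interval of -0.06 to 0.71, did not pass the test (adjusted p 0.822 by limma).

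Among the SNARE proteins and their cofactors, Stx1a was the member with several probe sets whose readings lay apart between the groups at each of them. Stx1a encodes syntaxin 1A, the plasma membrane SNARE of neurons. The brighter probe set read 341, 389.9, 293 and 345 on PBS and 398, 392, 499.8 and 393 on baculovirus. The dimmer read 111, 108, 68.7 and 119 on PBS and 135, 143, 209 and 122 on baculovirus. In both, the lowest value was on PBS replicate 3 and the highest on baculovirus replicate 3, and the gap between the groups was narrow, 391.6 against 389.9 at the brighter.

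The changes of Stx1a were 0.28 (interval 0.07 to 0.50) and 0.51 (interval 0.16 to 0.87), with unadjusted p 0.0139 and 0.00823 and adjusted p 0.686 for both by limma. They were 0.22 and 0.36 without PBS replicate 3. The difference between the probe sets was 0.23 with an interval of -0.05 to 0.51 and adjusted p 0.822.

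Vamp1 and Vamp2 encode synaptobrevins, the SNAREs of the vesicle. The brightest Vamp1 probe set read 697, 759, 511 and 706 on PBS and 707, 668, 731 and 658 on baculovirus, a change of 0.06 that was -0.06 without PBS replicate 3. The middle one read 161, 178, 107 and 206 on PBS and 222, 201, 265 and 140.0 on baculovirus, with changes of 0.32 and 0.15. The dimmest read 14.8, 26.1, 20.9 and 32.4 on PBS and 28.2, 42.1, 39.3 and 22.4 on baculovirus, with changes of 0.31 and 0.28. All 3 overlapped between the groups, and PBS replicate 3 was the lowest array at the brightest and the middle one but not at the dimmest.

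Vamp2 read 471, 513, 306 and 458 on PBS and 472, 463, 507 and 479.9 on baculovirus, and its change of 0.16 was 0.00 without PBS replicate 3. The 7 other arrays spanned only 458 to 513.

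Cplx1, complexin 1, showed the widest gap between 2 readings on PBS replicate 3. One probe set read 322, 349, 137 and 348 on PBS and 321, 309.8, 403.5 and 311 on baculovirus. The brighter one read 1339, 1343, 1246 and 1373 on PBS and 1231, 1345, 1403 and 1423 on baculovirus, and so did not set that array apart. The changes were 0.28 and 0.03 with all arrays, and -0.02 and 0.00 without PBS replicate 3. Cplx2, the second complexin, had a change of 0.09, and of 0.11 without that array.

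Nsf, the ATPase that takes SNARE complexes apart, had a negative change at all 3 probe sets, 1 of them near 0. The brightest read 1193, 1306, 964 and 1123 on PBS and 1073, 1107, 1146 and 1082 on baculovirus, a change of -0.05. The second read 548, 481, 395 and 458 on PBS and 399, 457, 457 and 377 on baculovirus, a change of -0.14 with an interval of -0.36 to 0.07. The dimmest read 199, 227, 196 and 248 on PBS and 223, 219, 262 and 169 on baculovirus, with mean intensities of 217.5 after PBS and 218.4 after baculovirus, and its change of -0.0036 turned positive under several alternatives. Leaving out PBS replicate 3, the changes were -0.13, -0.22 and -0.05. Napb, the NSF attachment protein beta, and Snap25 had changes of -0.04 and -0.03, and of -0.04 and -0.0066 without that array. Of the 8 genes of this role, 5 were higher with all arrays and 3 without PBS replicate 3.

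**Figure D3:**
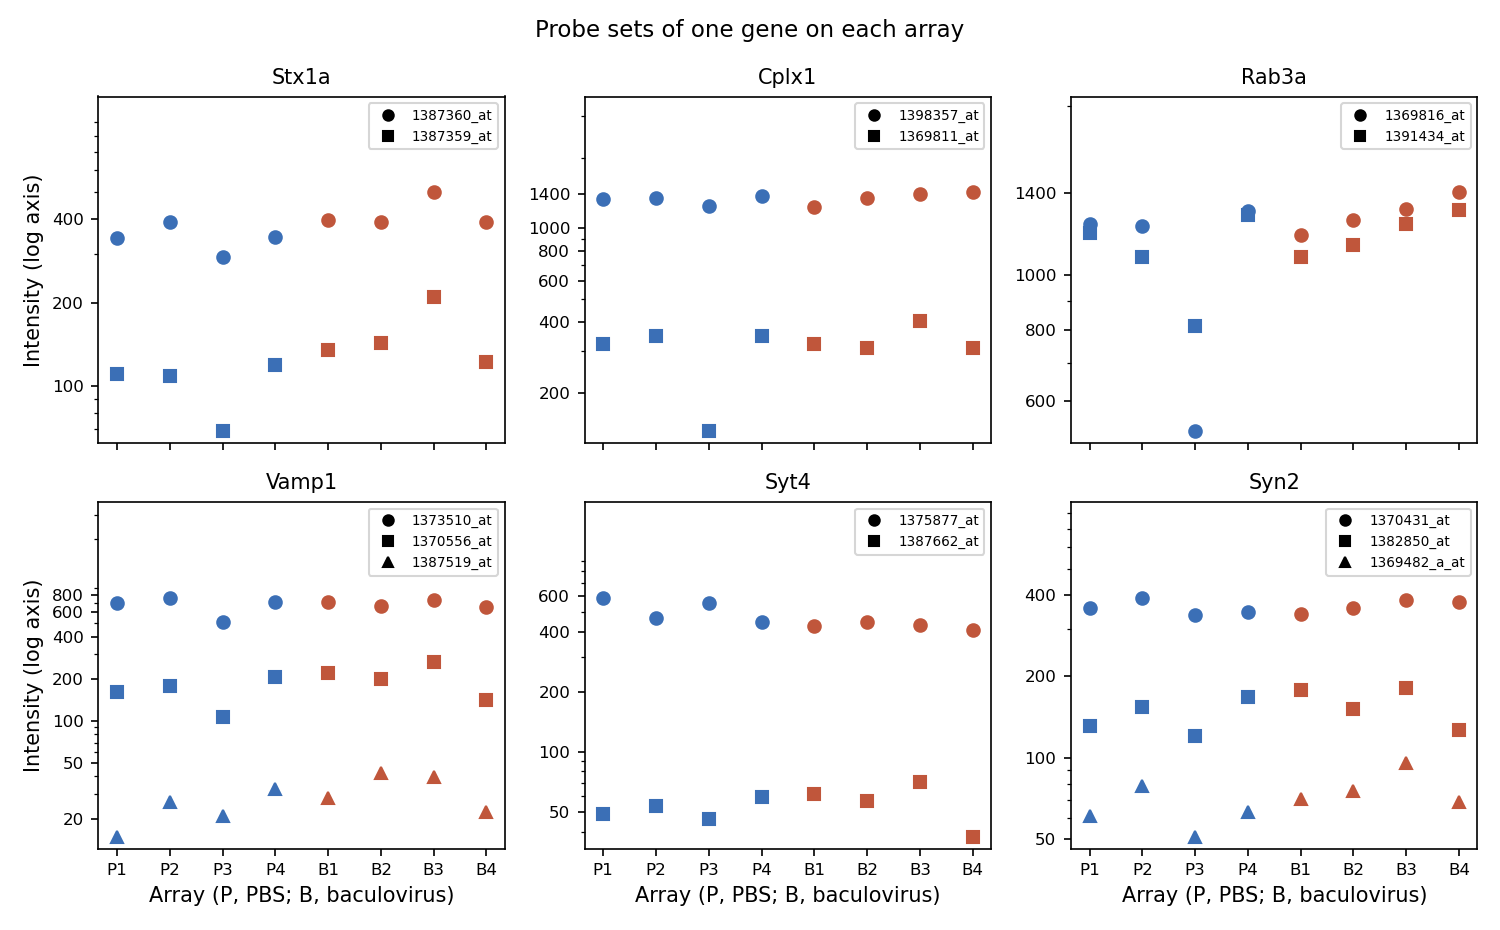
Intensity (y axis, logarithmic, each panel with its own range) of the probe sets of 6 presynaptic genes on each array (x axis), with PBS arrays in blue, baculovirus arrays in red and 1 marker shape for each probe set. Both Stx1a probe sets lie higher on the baculovirus arrays. On PBS replicate 3, Rab3a is low at both probe sets and Cplx1 at the dimmer one alone, 137 beside 1246.

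Of the Rab3 and active zone genes, 4 of the 7 tested were higher with all arrays, 1 of 7 (Rab3a) was higher without PBS replicate 3, and none separated the groups. Rab3b had a change of 0.10 that was -0.02 without PBS replicate 3. Rab3c, a dim gene, read 26.0, 25.2, 28.5 and 37.7 on PBS and 20.7, 30.7, 19.3 and 27.6 on baculovirus, a change of -0.16, and of -0.17 without that array. Its mean lay above the low-intensity limit of about 26.0 after PBS (29.4) and below it after baculovirus (24.6). Rims1, a scaffold that links Rab3 to the release site, read 67.2, 69.6, 32.8 and 52.9 on PBS and 63.9, 68.0, 52.0 and 61.0 on baculovirus, and its change of 0.14 was -0.03 without that array.

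Rims2 read 39.7, 53.8, 63.2 and 55.0 on PBS and 46.2, 37.6, 43.4 and 40.1 on baculovirus, a change of -0.24 with an interval of -0.50 to 0.01, and of -0.17 without PBS replicate 3. The lowest PBS value fell within the baculovirus range. The large scaffolds Bsn and Pclo had changes of 0.02 and -0.23 over all arrays and of -0.07 and -0.21 without PBS replicate 3, those of Pclo from a dim probe set that ranged from 20.4 to 57.0 over all 8 arrays.

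Of the endocytosis genes, Snap91, which encodes the clathrin adaptor AP180, read 657, 694, 692 and 601 on PBS and 583, 520, 622 and 511 on baculovirus. Only the PBS value of 601 fell below a baculovirus value, 622. The change was -0.24 with an interval of -0.41 to -0.06, unadjusted p 0.011 and adjusted p 0.686 by limma, and -0.22 without PBS replicate 3. The other Snap91 probe set lay below the low-intensity limit, with means of 8.36 after PBS and 13.3 after baculovirus. That second reading did not show a lower level. Dnm1, the neuronal dynamin that pinches vesicles off, read 1114 ± 77.1 after baculovirus and 1056 ± 59.5 after PBS (SD, n = 4), with changes of 0.07 and 0.05 with and without that array. Amph, amphiphysin, had a change of -0.09 that was -0.18 without PBS replicate 3.

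The 14 probe sets below the limit included the only readings of 6 genes. Mean intensities after PBS and after baculovirus were 10.8 and 13.3 for Sv2c, 5.25 and 3.23 for Syn3, 13.9 and 11.5 for Syt2, 17.7 and 16.1 for Rph3a, and 5.97 and 12.5 for Unc13a. The 3 Syt7 probe sets ranged from 1.66 to 20.5 over all arrays. The remaining 6 were further readings of Syngr1, Sv2b, Vamp2, Bsn, Pclo and Snap91, with means under 20 in both groups, while the brightest probe sets of Vamp2, Bsn and Snap91 had PBS means of 437, 630.5 and 661.

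The agreement between probe sets of one gene was then counted. Of the 11 genes with several tested probe sets, 10 had the same sign of change at all of them, or 90.9%, against 53.7% of the 2582 such genes on the array. By pairs of a gene's brightest and each further probe set, 13 of 14 shared a sign (92.9%), against 59.2% of 3352 pairs. These counts include the dimmest Vamp1 probe set, which passed the low-intensity limit only through its baculovirus values. Without PBS replicate 3, the same signs were found for 8 of 11 genes (72.7%, against 52.3% of all such genes) and for 9 of 14 pairs (64.3%, against 58.2%). The genes that left the count were Vamp1 and Syn2, whose brightest probe sets then had changes of -0.06 and -0.0048 beside positive ones at the further probe sets.

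Equal signs do not show equal changes, so the difference in change within each pair was tested. With limma over all 3352 pairs, 0 of 14 member pairs passed at an adjusted p of 0.05, as did 0% of all pairs. At an unadjusted p under 0.05 there were 0 member pairs and 176 in all, and the lowest adjusted p of a member pair was 0.822. The simulated test recovered 4.23% of pairs made to differ by 1.5-fold and 96.2% of those made to differ by 2-fold, so differences of the size seen here could have been missed. The simulated probe sets of a gene varied independently, whereas the measured ones were often correlated, as given below. These rates are therefore only a rough guide. The widest range within a gene was 0.33 for Syt4, followed by 0.26 for Cplx1 and for Vamp1, 0.23 for Stx1a and 0.22 for Syn2, and the narrowest was 0.003 for Syt3.

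Over the 8 arrays, the correlation between the 2 probe sets of a pair had a median of 0.61 among the 14 member pairs and of 0.27 over all 3352. The medians were 0.47 and 0.26 without PBS replicate 3. The points of each correlation share their arrays and their scaling, so this is a description. It ran from 0.98 for Syn1, 0.94 for Stx1a and 0.94 for Rab3a to 0.09 for Syn2 at its second probe set and -0.26 for Syt4.

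**Figure D4:**
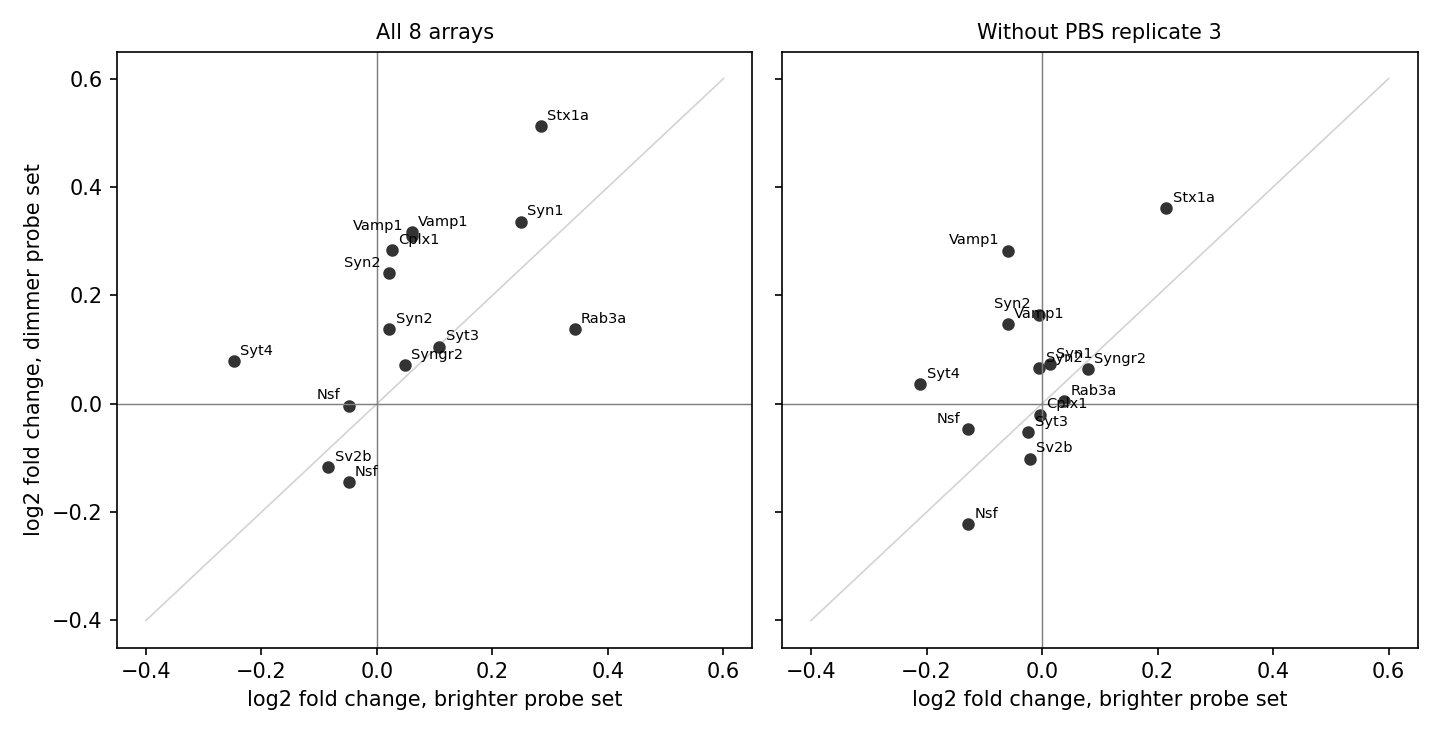
Log2 fold change of baculovirus over PBS at a gene's brighter probe set (x axis) and at a dimmer one (y axis) for the 14 member pairs, with all 8 arrays on the left and without PBS replicate 3 on the right. The grey diagonal marks equal change. With all arrays 13 of 14 pairs lie in the quadrants of equal sign, and without the array 9 do.

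The probe sets of a gene differed in the kind of sequence they were designed from. By the accession in the annotation, 29 of the tested member probe sets came from an mRNA record and 17 from an expressed sequence tag (EST), with median intensities of 127 and 610. In 10 of the 12 member pairs that had 1 of each, the EST probe set was the brighter, and in 2 the mRNA one, against 358 and 215 of the 573 such pairs over all genes. On PBS replicate 3, 10 of the 29 mRNA probe sets were low by the limit of 0.5 (34.5%) and 3 of the 17 EST probe sets (17.6%). Over all probe sets tested the shares were 6.02% and 3.21%. Whether the kind of sequence or the level of intensity goes with the low readings was not tested.

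The genes outside the members were used to place the low array. Of 36 other tested genes of the release machinery, 17 were above and 19 below their PBS mean after baculovirus, with a median change of -0.01 and 0 called. Leaving out PBS replicate 3, 15 were above and 21 below, with a median of -0.03. Only 2 of them were low on PBS replicate 3 (5.56%), beside 7 of the 32 member genes at their brightest probe set (21.9%) and 3.33% of all genes tested. The 2 with the smallest p were Sypl1, a synaptophysin-like protein, with a change of -0.30 (adjusted p 0.686 by limma), and Cadps, a priming factor, with -0.16 (adjusted p 0.737). These were -0.25 and -0.19 without PBS replicate 3.

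Of 23 other endocytosis genes, 17 were higher and 6 lower, with a median of 0.10, and 1 was low on PBS replicate 3. Leaving that array out, 19 were higher and 4 lower, with a median of 0.07. Those with the smallest p were Pacsin1, a dynamin partner, with 0.30 (adjusted p 0.686 by limma), and Dnm2, a widely expressed dynamin, with 0.25 (adjusted p 0.742). These were 0.25 and 0.18 without PBS replicate 3, and 0 of the 23 were called with or without it.

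Of 4 vesicle transmitter transporters, 3 were higher with all arrays and 2 without PBS replicate 3, and 2 were low on that array, where the list stood at -0.526 on the log2 scale. Slc17a7, the vesicular glutamate transporter of cortical neurons, read 454 there and 909 to 1270.5 on the other arrays. The 2 with the smallest p were Slc32a1, the vesicular GABA transporter, with a change of 0.17 (adjusted p 0.777 by limma), and Slc17a6, a second glutamate transporter, with -0.31 (adjusted p 0.824). These were 0.11 and -0.53 without PBS replicate 3.

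Markers of the cells in the tissue stood as follows. Of 15 general neuron markers, 8 were higher and 7 lower after baculovirus (median 0.04), their summed intensity was 12020 to 13162 on PBS and 11913 to 13330 on baculovirus, and 2 were low on PBS replicate 3. That array had the lowest sum of the PBS arrays and the lowest mean log2 level of all 8, -0.150 against -0.0763 to 0.0617 on the others. The median neuron marker deviated by -0.194 there, beside -0.202 for the member genes at their brightest probe sets. Leaving that array out, 7 neuron markers were higher and 8 lower (median -0.02). Of 12 striatal projection neuron markers, 3 were higher and 9 lower (median -0.07, also without PBS replicate 3, where 2 were higher and 10 lower), with sums of 5541 to 7554 and 5427 to 7363, and 0 were low on that array. Of 9 cortical markers, 5 were higher and 4 lower, with sums of 3611 to 4220.1 and 3749.7 to 4506. On PBS replicate 3, which had the lowest sum of all 8 arrays, 1 of them was low. This was Slc17a7, counted among the transporters too, at 454 there and 909 to 1270.5 on the other arrays. The median cortical marker deviated by 0.043 on that array, so the low sum does not describe the list as a whole. Leaving PBS replicate 3 out, 3 were higher and 6 lower. The members themselves summed to 14226 to 16976 on PBS and 15414 to 17360.0 on baculovirus.

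Of 10 microglia and macrophage markers, 9 were higher and 1 lower (median 0.17, and 0.27 with the same counts without PBS replicate 3), with sums of 1818 to 2846 on PBS and 2102 to 2995 on baculovirus, and PBS replicate 3 had the highest sum of the PBS arrays. Astrocyte markers summed to 9612 to 11317 and 9684 to 10645, and oligodendrocyte markers to 7591 to 8165 and 7663 to 8191. The 3 choroid plexus markers summed to 135 to 2035 on PBS and 1698 to 2139.9 on baculovirus, the low value being that of PBS replicate 4. The part of these cells in the members' values was not tested.

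The control probes that compare both ends of a transcript gave a log2 difference between the 3' and the 5' end for actin of 0.46 on PBS replicate 3, within the range of 0.364 to 0.722 over all arrays. For hexokinase it was 1.02 there, the lowest of the arrays, whose highest was 1.53. The part of RNA quality or of the labelling kit in the low readings was not tested.

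**Figure D5:**
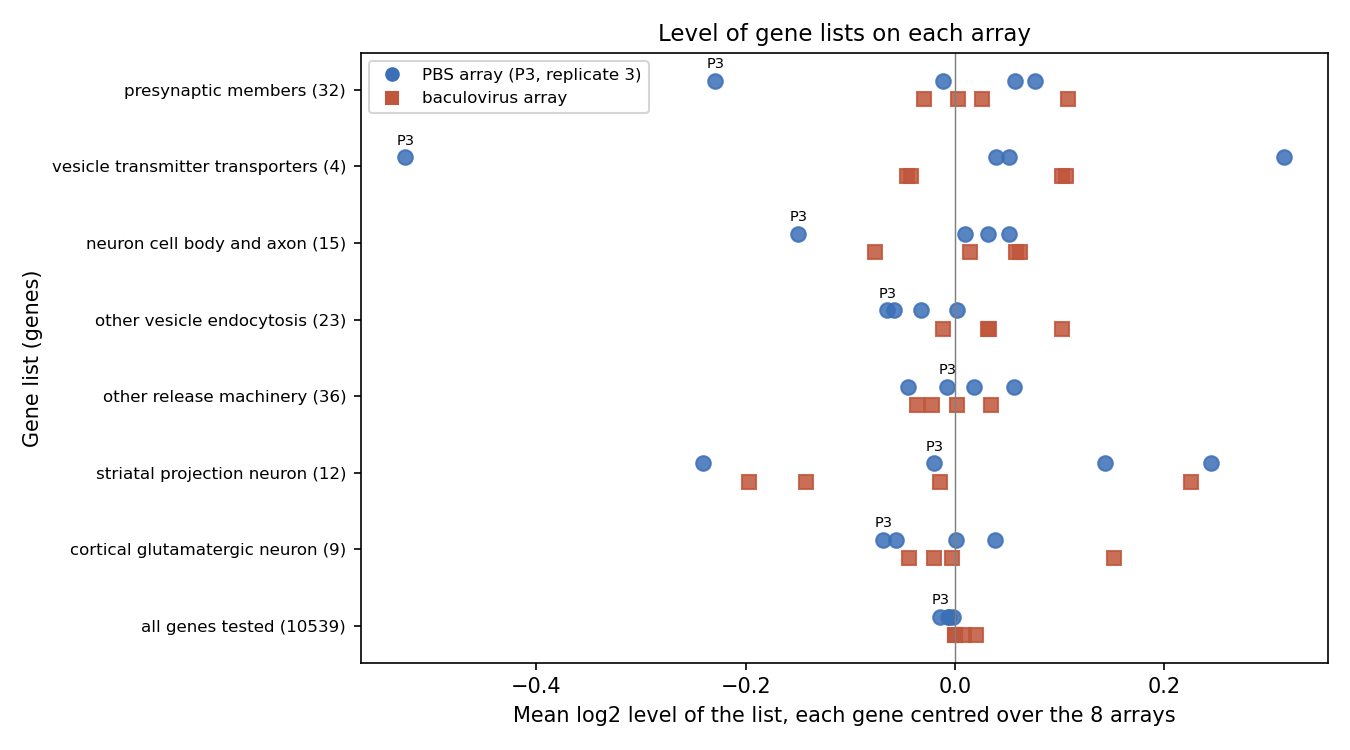
Level of each gene list on each array (x axis), averaging its genes' log2 levels after each gene was centred on its own mean of 8 arrays, with the number of genes tested in brackets (y axis). Circles are PBS arrays, squares baculovirus arrays, and P3 marks PBS replicate 3. The presynaptic members stand at -0.229 on that array and from -0.0116 to 0.0765 on the other PBS arrays. Vesicle transmitter transporters, at -0.526, and neuron markers, at -0.150, also have their lowest level there. By narrower margins, so do cortical markers (-0.0684, next lowest -0.0567) and other vesicle endocytosis (-0.0654, next lowest -0.0581). All genes tested stand at -0.0143 there, next lowest -0.0064. The other release machinery, at -0.0079, and striatal projection neuron markers, at -0.0203, do not have their lowest level there.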

How the data were processed

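RNA from injected rat brain was labelled with an Affymetrix or a Kreatech kit, per the labels' protocols, and hybridised to Affymetrix Rat Genome 230 2.0 arrays. The kit of each array is not given in these sources. Linear intensities were deposited, scanned with GCOS per the submitters' processing notes, which also name GCRMA. Which algorithm made the values is not stated per the labels. The deposited intensities had been scaled: the mean with 2% trimmed at each end was 100.021 to 100.023 on every array. No column belonged to another sample, and no 2 arrays were identical.

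Intensities were turned into log2(intensity + 16), so fold changes understate those of dim probe sets. Of 31099 probe sets, 57 controls were left out. The 18625 probe sets whose mean exceeded the 40th percentile (about 26.0) were tested. The test was limma's (version 3.58.1, R 4.3.3), with lmFit, then eBayes with trend, without a block and two-sided, adjusted by Benjamini-Hochberg over all 18625 at a threshold of 0.05. The arrays were left as deposited because their medians spanned less than 0.2. Pairs of probe sets were tested by the same tool on the log2 difference between them. The fits were tested on simulated data. Figures were drawn with matplotlib 3.10.9.

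The members and lists were chosen with earlier results of these data known. Values on every array are given for the 5 member probe sets with the smallest p in each direction, all probe sets of the 5 genes with the largest difference between probe sets and of the 3 genes with the most, and, chosen after their values were seen, members low or high on PBS replicate 3. Of each further list the 2 genes with the smallest p are named, with Slc17a7 added after its value was seen. The numbers in the labels were not taken to pair the arrays. Deviations of same-numbered arrays from their group means correlated at -0.00511, 0.016, 0.00885 and -0.00302. Those of differently numbered arrays correlated at -0.106 to 0.075. Centring on group means of 4 arrays keeps such values near 0 on average, so they cannot show whether same-numbered arrays share a rat. The alternatives were the pseudocount, the normalization, the filter, the variance model, array weights, a replicate block, the methods' t-test, averaging a gene's probe sets and leaving out each array.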

Additional observations from a re-analysis of the deposited data

Results flagged for a closer look

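In each of 92 sets of 4 arrays (46 tested member probe sets in 2 groups), an array was marked where its gap to the nearest other array exceeded Dixon's 95% critical share of the range, which chance gives in about 1 of 20 such sets. It marked 7, of which 4 were on PBS replicate 3.

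On PBS replicate 3, Syt3 (1369058_at) read 19.28 beside 37.4 to 39.9 on the other PBS arrays. Syt5 read 124.59 beside 271 to 298. Cplx1 (1369811_at) read 137.35 beside 322 to 349. Rab3a (1369816_at) read 529.3 beside 1223 to 1302.

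On baculovirus replicate 3, Stx1a (1387360_at) read 499.8 beside 391.6 to 398, and Cplx1 (1369811_at) read 403.5 beside 309.8 to 321. On baculovirus replicate 4, Rab3b read 389.22 beside 313 to 323.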

How the results depend on the processing

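Under every alternative run, 0 member probe sets, 0 of all probe sets and 0 member pairs passed an adjusted p of 0.05, with the lowest adjusted p of a member between 0.347 and 0.997. The methods' t-test with a 2-fold difference called 0 members and 0 of all probe sets, 0 after Benjamini-Hochberg, and 4 members and 1251 in all at an unadjusted p under 0.05. The replicate block gave 0 calls, 22 of 32 member genes higher and a lowest adjusted p of 0.785 for the members. The median member change ranged from -0.0225 to 0.0714 when each array was left out, and was 0.0772 when a gene's probe sets were averaged. The genes with one sign at all probe sets numbered 8 to 10 of 11 when each array was left out, 8 of 11 with median centring, 9 of 11 with quantile normalization, 8 of 8 with the filter at the 60th percentile and 13 of 17 with no filter. Genes with a higher mean numbered 10 to 23 of 32 when each array was left out, the 10 being without PBS replicate 3, 18 with median centring and 25 of 38 with no filter. The share over all genes was not computed with median centring or with no filter.

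Of 588 recomputed probe set changes, 570 kept their sign and 18 did not. Nsf (1369689_at) was 0.00934 with quantile normalization, and Syn2 (1370431_at) and Cplx1 (1398357_at) were -0.00716 and -0.00314 with median centring; the cause was not tested. Leaving out each array gave ranges of -0.128 to 0.016 and -0.0904 to 0.105 for Nsf (1372528_at and 1369689_at), -0.00483 to 0.0611 for Syn2 (1370431_at), -0.0597 to 0.126 for Vamp1 (1373510_at), -0.0035 to 0.0687 and -0.02 to 0.397 for Cplx1 (1398357_at and 1369811_at), -0.127 to 0.195 for Syt1, -0.0525 to 0.175 for Syt3 (1369058_at), -0.0134 to 0.373 for Syt5, -0.0349 to 0.235 for Rims1 and -0.0147 to 0.218 for Syt4 (1387662_at). Having 4 arrays a group limits the precision. The limit of 0.5 on deviations, the split by kind of accession and the promoter searches were chosen after the data were seen.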
